A study of Sus scrofa with 8 samples.

Results

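Genes of the skeletal muscle sarcomere and its energy supply were followed in the lung of Tibetan and Duroc pigs kept high or low. The set was chosen by name and by detection: 10 genes were listed (ACTA1, CKM, MB, MYH1, MYH2, MYH4, MYH7, TNNT3, TNNC2 and TNNT1), and a probe was kept where the scanner software marked it as well above background on at least 1 of 8 arrays. Under this rule 18 probes carried a listed name and 16 of them passed, for 9 of the 10 genes, among 34406 probes passing on the whole array. For MB, which encodes myoglobin, no probe was found by name. The detection flags that chose the probes are given as a description. Of the 16 probes, 15 were named by a RefSeq accession of the array design and were tested. A probe of CKM was named only by tables sorted on results from these same arrays and is described without a test. At the border of the rule, TNNT3 passed on 5 arrays, whereas 2 further probes of MYH4 passed on 0 arrays and were left out.

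Skeletal muscle fibers contract when heads of myosin, whose heavy chains are encoded by MYH genes, pull on thin filaments of actin, and the troponin complex makes this step depend on calcium. Fast and slow fibers use different isoforms. MYH2, MYH1 and MYH4 encode the heavy chains of fast type IIa, IIx and IIb fibers, MYH7 encodes the slow heavy chain that the heart ventricle also uses, TNNT3 and TNNC2 belong to fast troponin, and TNNT1 to slow troponin. ACTA1 encodes skeletal alpha actin and CKM the muscle creatine kinase that regenerates ATP. Lung holds smooth muscle in airways and vessels, and striated cardiac muscle can extend into the wall of large pulmonary veins. A tissue piece with muscle of 1 kind would carry its sarcomere genes together, so the question was whether the 9 genes shared 1 order of the groups.

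The pigs were female and 6 months of age at harvest, 2 per group, with 1 array for each pig. TH were Tibetan pigs that stayed at 3500 m and DL were Duroc pigs that stayed at 40 m, while TL were Tibetan pigs taken to 40 m and DH were Duroc pigs taken to 3500 m at 1 month of age. The TH arrays shared 1 slide with the DL arrays, and the TL arrays shared the other with the DH arrays. The breed by altitude interaction, the slide and the move itself therefore form 1 contrast and cannot be told apart. The breed and altitude effects hold the same number of arrays from each slide. The paper names a farm in Yunnan at 3500 m and a farm in Guangdong at 40 m, and no other site for the moved pigs. An altitude effect can therefore not be told apart from an effect of farm or region. On the TL arrays 31641 to 31723 probes were well above background, against 26466 to 29319 on the 6 others, and the median raw signal of TL was also highest, at 324 and 333.5 against 207.5 to 230. No spot was saturated. In whole tissue, fewer cells of a type and less RNA per cell cannot be told apart.

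Values are log2 signals after background correction and quantile normalization, so that a difference of 1 is a doubling; they are compared between groups for each probe, never between probes. Breed differences are given as Tibetan minus Duroc, averaged over altitude, the altitude effect is highland minus lowland averaged over breed, and the interaction is the altitude difference in Tibetan pigs minus that in Duroc pigs. Calls were made at an FDR below 0.0001 in limma, with the Benjamini-Hochberg adjustment over all 34406 probes.

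The 9 genes did not share 1 order of the groups. At the brightest probe of each gene, the measured group means fell into 7 different orders, of which that of TNNT3 rests in part on a group not well above background. CKM, MYH1 and MYH2 ran from DH through TH and TL down to DL, but their TH and DH means were closer than the 2 DH arrays. MYH4 began with TH, followed by DH, TL and DL. ACTA1 had TL and TH at the top and DH at the bottom. TNNT1 was highest in DH and DL and lowest in TL, TNNC2 was highest in TH and lowest in TL, TNNT3 was highest in TH, and MYH7 was highest in TL and lowest in TH. For each of the 15 tested probes, the range of the 4 group means was larger than the largest difference between 2 arrays of the same group. The share of all probes that do so was not counted, so this is not given as a trait of the members. The median range was 1.01 over these probes, beside 0.98 over all probes tested. The median of the largest difference between arrays of a group was 0.17, beside 0.16 over all probes.

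**Figure D1:**
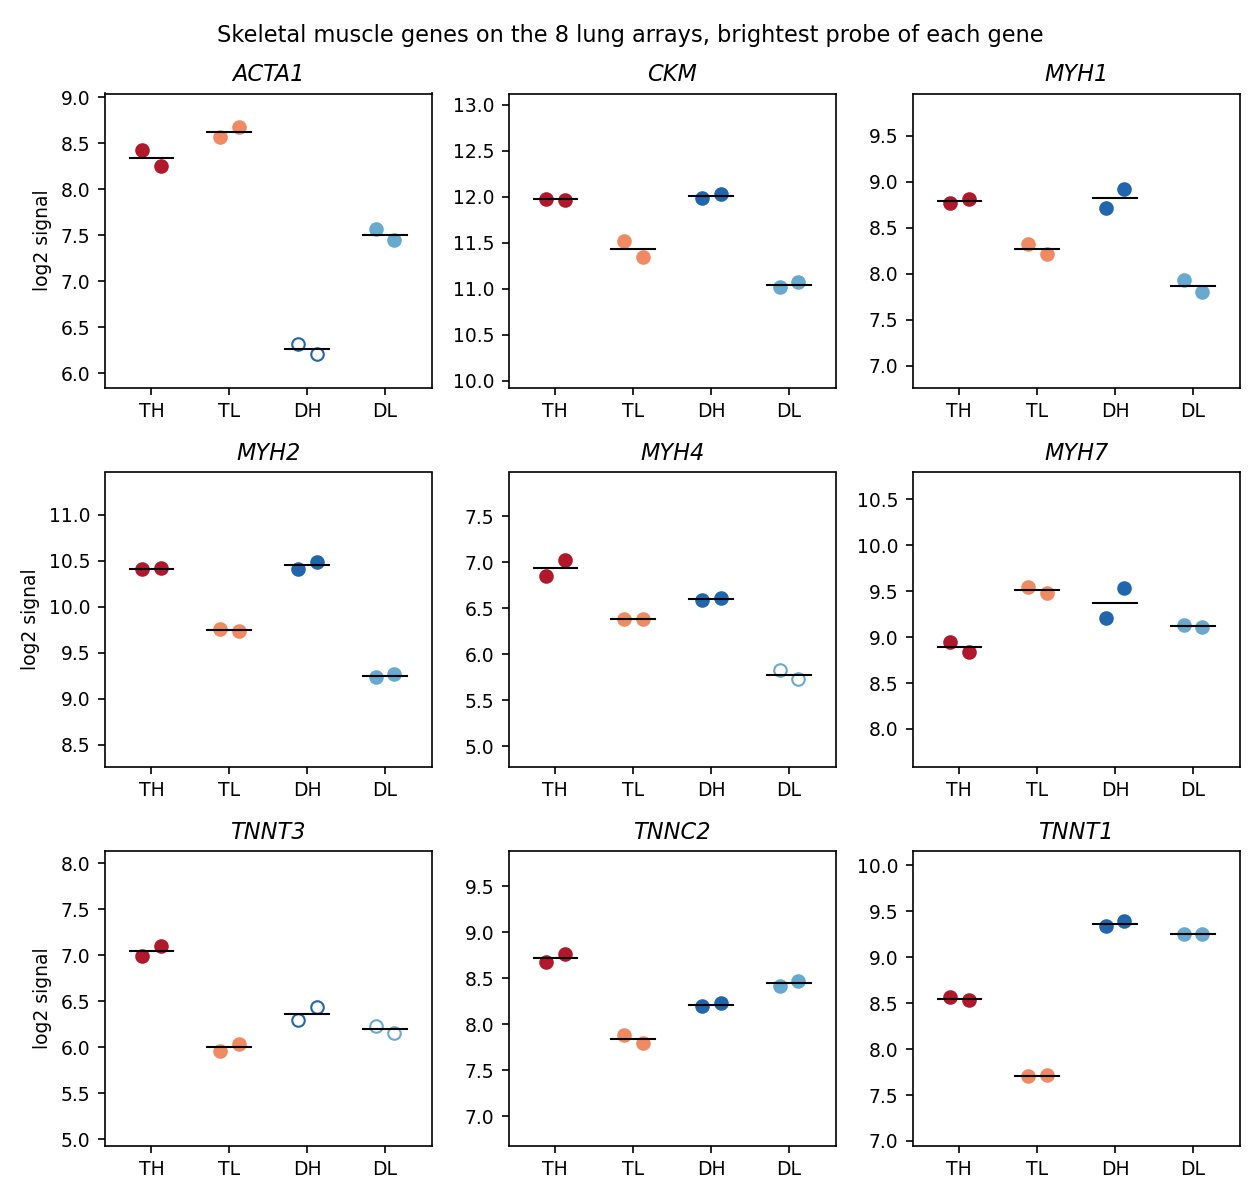
Log2 signal (vertical axis, 3.2 units high in each panel) of the brightest probe of 9 skeletal muscle genes on each array, by group. Each point is 1 pig, horizontal lines are group means, and open points mark a group in which the probe was well above background on fewer than 2 arrays; CKM, MYH1, MYH2 and MYH4 share their 2 highland groups at the top, while ACTA1 is lowest in DH and TNNT1 is lowest in TL.

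Among the 15 tested probes, the highest group mean was DH for 8, TH for 4, TL for 3 and DL for 0. Over all probes tested DH was highest for 17% and DL for 27.5%. DL was the lowest group for 8 of the 15 and TL for 4, TNNT3 included, beside 21% and 42.6% of all probes. The order DH, TH, TL, DL held for 6 of the 15 probes, of which 4 belong to MYH1, and for 1.29% of all probes. Probes of 1 gene share its RNA and are not independent. Detection favours a probe that is high in at least 1 group, and 8 of the 15 tested probes passed on all 8 arrays.

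**Figure D2:**
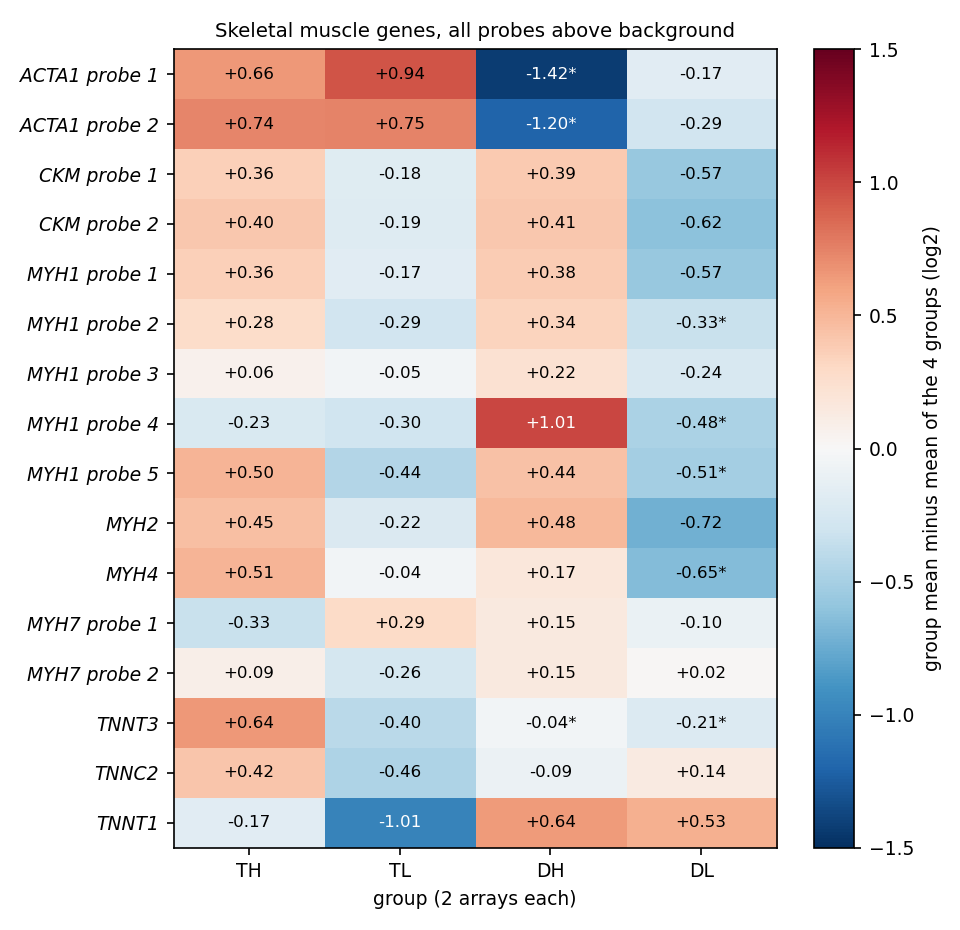
Group means of the 16 probes (rows, grouped by gene, brightest probe first) in the 4 groups (columns), each minus the mean of the 4 groups of that probe, in log2 units. An asterisk marks a group in which fewer than 2 arrays were well above background; the rows of CKM, MYH1, MYH2 and MYH4 are positive in DH and lowest in DL, the rows of ACTA1 are negative in DH, and the 2 rows of MYH7 differ in sign in TH, TL and DL.

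The fast heavy chain genes and CKM were higher in both highland groups. MYH2, the type IIa heavy chain, had log2 signals of 10.41 and 10.42 in TH, 9.76 and 9.74 in TL, 10.41 and 10.49 in DH, and 9.23 and 9.27 in DL. Every highland array was above every lowland array, the TH and DH arrays overlapped, and DL was below TL. MYH2 rose with altitude by 0.93 ± 0.03 on the log2 scale (SE, limma, adjusted p = 1.2e-05), which is 1.91-fold. CKM was at 11.98 and 11.97 in TH, 11.52 and 11.35 in TL, 11.99 and 12.03 in DH, and 11.02 and 11.07 in DL. Here too the highland arrays lay above the lowland arrays without overlap, with DL lowest. CKM rose with altitude by 0.75 ± 0.05 (limma, adjusted p = 6.5e-05), or 1.68-fold. The second probe of CKM, described only, had group means of 11.78, 11.19, 11.79 and 10.76 in TH, TL, DH and DL, which is the same order.

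MYH1, the type IIx heavy chain, was at 8.77 and 8.81 in TH, 8.32 and 8.21 in TL, 8.72 and 8.92 in DH, and 7.93 and 7.80 in DL at its brightest probe. The groups fell as for MYH2, with no overlap between altitudes, and the altitude difference of 0.74 ± 0.06 missed the threshold (limma, adjusted p = 1.8e-04). The altitude differences of its 4 other probes were 0.28 to 0.95, all positive, and also missed it. DL was lowest for all 5 probes of MYH1, and DH was highest for 4. In 1 dim probe of MYH1 the 2 TL arrays were 1.41 apart, at 7.15 and 5.74. MYH4, the type IIb heavy chain, was at 6.85 and 7.02 in TH, 6.38 and 6.38 in TL, 6.58 and 6.61 in DH, and 5.83 and 5.73 in DL, where it was not well above background on either array. TH was at least 2.24-fold, DH at least 1.76-fold and TL at least 1.52-fold above DL, with adjusted p of 1.1e-04, 4.2e-04 and 5.3e-04 in limma. The mean altitude difference of MYH4, 0.69 ± 0.05, missed the threshold (limma, adjusted p = 1.1e-04). MYH4, MYH1 and MYH2 are neighbours in this order in the RefSeq annotation of Sscrofa11.1 and are close relatives in sequence, so that signal of 1 transcript on a probe of another was not separated here.

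In the 15 tested probes, 7 had every highland array above every lowland array and 0 had the reverse. The first pattern held for 11% of all probes and 20.5% of all RefSeq-named probes. The 7 were 3 probes of MYH1 and the single tested probes of CKM, MYH2, MYH4 and TNNT3. In DL, MYH4 and TNNT3 were well above background on 0 arrays, and these MYH1 probes other than the brightest on 1. TNNT3 was well above background on only 1 DH array. The reverse pattern held for 8.85% of all probes. Of the 8 tested probes that passed on all 8 arrays, 3 had the highland pattern. For the altitude effect, 3 of 15 probes were called, all higher at high altitude (MYH2, CKM and TNNT1), beside 17.4% of all probes. With processed signals scaled to the 75th percentile there were 4 higher and 1 lower. At an FDR below 0.05 the count was 13, of which 11 were higher at high altitude, beside 66.9%. The median altitude difference was 0.61 over the 15 probes, 0.16 over all RefSeq-named probes and 0.0015 over all probes. Over the 15 it was 0.13 after local background correction with an offset of 50, and it was 0.40 over the 8 probes on all arrays. With any 1 of the 8 arrays left out the 3 calls were lost, as were all others for altitude, since 0 of the 34406 probes passed in limma in each of these 8 fits, while 22682 to 23639 had an unadjusted p under 0.05. The values stayed at 0.91 to 0.95 for MYH2, 0.71 to 0.80 for CKM and 0.46 to 0.49 for TNNT1, with adjusted p between 1.5e-04 and 6.0e-04 in limma. The difference had the same sign within each breed for the fast heavy chains and CKM, but CKM, MYH1 and MYH4 were called in neither breed. From TL to TH the differences were 0.66 for MYH2, 0.54 for CKM, 0.52 for MYH1 and 0.56 for MYH4. The median over all RefSeq-named probes was 0.34 there. From DL to DH the differences were 1.20, 0.96 and 0.95 for the first 3, beside a median of -0.02 over all RefSeq-named probes. MYH4, not well above background in DL, is given by its bound above.

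MYH2 was called in both breeds, with adjusted p of 5.3e-05 in Tibetan and 5.1e-05 in Duroc pigs in limma. From TL to TH, 4 of 15 member probes were called (MYH2, TNNC2, TNNT1 and TNNT3), all higher in TH, beside 29.5% of all probes. From DL to DH, 1 of 15 was called, beside 3.07%. Each of these calls was lost on leaving out single arrays, except that of TNNT1 without either DH array. Without 1 array MYH2 was 0.65 to 0.68 in Tibetan and 1.16 to 1.24 in Duroc pigs, TNNC2 0.84 to 0.92 and TNNT1 0.82 to 0.85. The larger difference of MYH2 in Duroc pigs, an interaction of -0.54 ± 0.06, missed the threshold (limma, adjusted p = 6.7e-04). Each slide holds 1 highland and 1 lowland group of different breeds. Within the slide of TH and DL, MYH2 was higher in TH by 1.17 (limma, adjusted p = 3.0e-05), and within the slide of DH and TL it was higher in DH, with TL minus DH at -0.70 (limma, adjusted p = 4.9e-05), so that the highland group was higher on both slides. Without single arrays these were 1.15 to 1.19 and -0.74 to -0.66, and both calls were lost. CKM, MYH1 and MYH4 also had positive values in TH minus DL and negative values in TL minus DH.

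**Figure D3:**
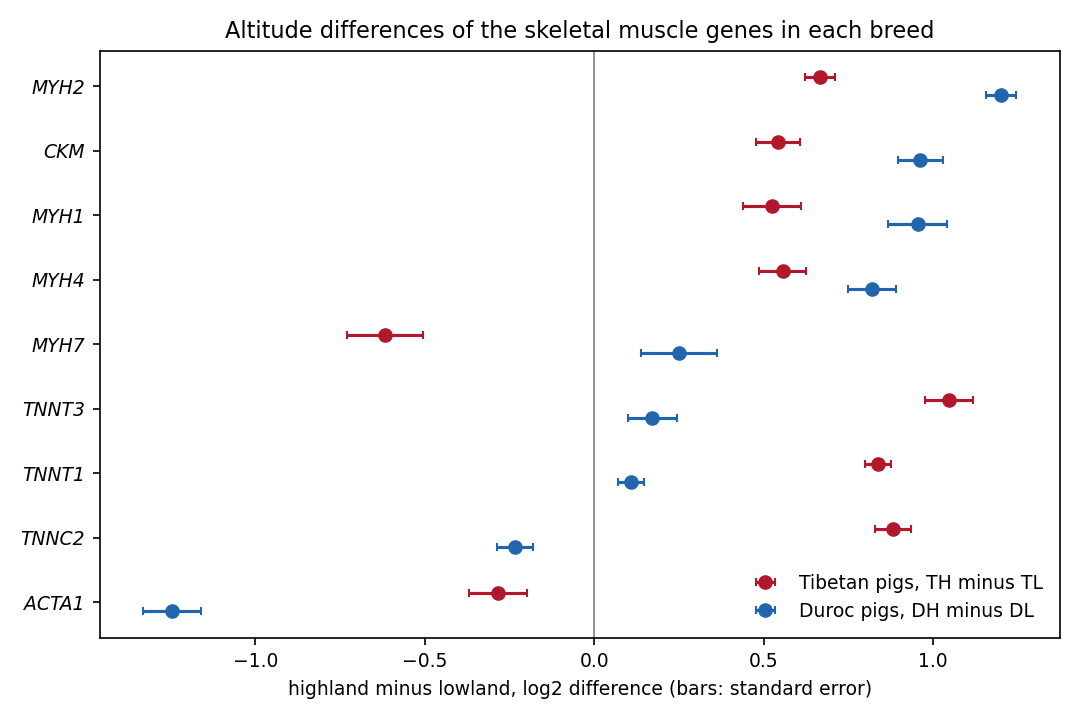
Highland minus lowland difference (horizontal axis, log2 units, bars are standard errors of limma, 2 arrays per group) of the brightest probe of 9 genes, in Tibetan pigs (TH minus TL) and in Duroc pigs (DH minus DL). MYH2, CKM, MYH1 and MYH4 lie at 0.52 to 1.20 in both breeds, ACTA1 is below 0 in both, and TNNC2 and MYH7 differ in sign between breeds.

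ACTA1 moved with breed and was lowest in DH, where MYH1 and MYH2 were near their TH level and above both lowland groups. Its brightest probe was at 8.42 and 8.25 in TH, 8.57 and 8.67 in TL, 6.32 and 6.21 in DH, and 7.57 and 7.45 in DL. All 4 Tibetan arrays were above all 4 Duroc arrays, TH and TL did not overlap, and DH was well above background on 1 of its 2 arrays. Tibetan arrays all lay above Duroc arrays for 2 of the 15 tested probes, both of ACTA1, and for 7.2% of all probes. The Tibetan level of ACTA1 was higher by 1.59 ± 0.06, or 3.02-fold (limma, adjusted p = 1.2e-05). The gap was 2.07 at high altitude (TH minus DH, adjusted p = 4.4e-05 in limma) and 1.11 at low altitude (TL minus DL, adjusted p = 9.6e-05 in limma). Without single arrays these gaps were 1.99 to 2.16 and 1.05 to 1.17, and both calls were lost. In Duroc pigs ACTA1 was lower at high altitude, with DH minus DL at -1.24 ± 0.09 (limma, adjusted p = 2.2e-04), while MYH2 was higher there. Its second probe was at 7.997 and 8.272 in TH, 8.08 and 8.22 in TL, 6.50 and 5.89 in DH, and 7.14 and 7.08 in DL. This probe was well above background on 0 of 2 DH arrays, so that TH was at least 3.83-fold, TL at least 3.86-fold and DL at least 1.89-fold above DH. TH and TL overlapped at this probe, and the breed difference of 1.49 ± 0.15 missed the threshold (limma, adjusted p = 3.8e-04). Without single arrays the breed difference of the brightest probe was 1.55 to 1.64, with adjusted p of 9.4e-05 to 1.8e-04 in limma, and was called only without TH replicate 2. It was 0.49 after local background correction with an offset of 50.

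TNNT1, slow troponin T, moved with breed in the other direction. It was at 8.56 and 8.54 in TH, 7.71 and 7.72 in TL, 9.34 and 9.39 in DH, and 9.25 and 9.25 in DL. All Duroc arrays were above all Tibetan arrays and no 2 groups overlapped, with DH and DL closest. Such a breed separation held for 1 of the 15 tested probes and for 13.4% of all probes. TNNT1 was lower in Tibetan pigs by a log2 difference of -1.18 ± 0.03, a 2.26-fold gap (limma, adjusted p = 4.7e-06). The gap was -0.81 between TH and DH (limma, adjusted p = 6.5e-05) and -1.54 between TL and DL (limma, adjusted p = 1.8e-06), and the last call was kept without each of the 8 arrays. The call between TH and DH was lost in each case, at -0.84 to -0.79. The breed call of TNNT1 was lost without either TL array, where 2 probes of the whole array were called, the highest adjusted p was 1.1e-04 in limma and the values were -1.19 to -1.16. TNNT1 also rose with altitude by 0.47 ± 0.03 (limma, adjusted p = 5.0e-05). The altitude difference of TNNT1 was 0.84 in Tibetan pigs (limma, adjusted p = 1.3e-05) and 0.11 in Duroc pigs (limma, adjusted p = 0.059), and the interaction of 0.73 ± 0.05 missed the threshold (limma, adjusted p = 1.1e-04). After local background correction with an offset of 50, the breed difference was -0.57 and the altitude difference 0.20.

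For the breed effect, 2 of 15 probes were called, ACTA1 higher and TNNT1 lower in Tibetan pigs, beside 19.5% of all probes. With processed signals scaled to the 75th percentile there were 3 higher and 1 lower. At an FDR below 0.05 the count was 9, beside 67.7%. Between TH and DH the same 2 genes were called among the 15 probes, beside 4.42%, and between TL and DL they were again the 2 called, beside 29.9%. Within the slide of TH and DL, MYH2 higher and TNNT1 lower in TH were called, beside 6.47%. Within the slide of TL and DH, ACTA1 higher and MYH2 and TNNT1 lower in TL were called, 3 of 15, beside 26.2%. Without single arrays, TL minus DH of TNNT1 was lost without TL replicate 1 and that of ACTA1 without any TL or DH array, at values of -1.68 to -1.62 and 2.30 to 2.41, and TH minus DL of TNNT1 was lost in each case, at -0.72 to -0.69. These comparisons share arrays and are not independent of each other. For CKM, MYH1 and MYH2, TH minus DH was -0.03 ± 0.07, -0.03 ± 0.09 and -0.03 ± 0.04, less than the difference between the 2 DH arrays.

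TNNC2, fast troponin C, had altitude differences of opposite sign in the 2 breeds, in the contrast that interaction, slide and move share. It was at 8.68 and 8.76 in TH, 7.88 and 7.80 in TL, 8.19 and 8.23 in DH, and 8.41 and 8.47 in DL. No groups overlapped, with TH highest and TL lowest. TNNC2 was higher in TH than in TL by 0.88 ± 0.05 (limma, adjusted p = 3.7e-05), while DH minus DL was -0.23 ± 0.05 (limma, adjusted p = 0.015). The interaction of 1.11 ± 0.08 was the single call among the 15 probes (limma, adjusted p = 7.7e-05), beside 21.1% of all probes. With processed signals scaled to the 75th percentile there were 1 higher and 2 lower. At an FDR below 0.05 there were 10 calls, 5 in each direction, beside 69.7%. Without single arrays the interaction of TNNC2 was 1.07 to 1.16 with adjusted p of 3.9e-04 to 6.7e-04 in limma, so that the call was lost on leaving out any of the 8. It was 0.47 after local background correction with an offset of 50. The median interaction was 0.19 over all probes and 0.35 over all RefSeq-named probes. TL, the lowest group for TNNC2, was also the lowest for 50.4% of RefSeq-named probes.

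TNNT3, fast troponin T, was at 6.99 and 7.10 in TH, 5.96 and 6.04 in TL, 6.29 and 6.43 in DH, and 6.23 and 6.16 in DL. TH stood above the other groups. It was well above background on both TH and both TL arrays, 1 DH array and 0 DL arrays, and TH was at least 1.80-fold above DL (limma, adjusted p = 3.1e-04). TNNT3 was higher in TH than in TL by 1.05 ± 0.07, 2.07-fold (limma, adjusted p = 5.8e-05), and was 0.99 to 1.10 without single arrays, with the call lost in each case. It was 0.18 after local background correction with an offset of 50, and the call was made in 3 of 11 settings other than the left-out arrays. DH minus DL was 0.17 ± 0.07 (limma, adjusted p = 0.094). On the TL arrays, which carry the brightest raw signal, TNNT3 was marked as above background at lower normalized values than those at which it was not so marked in DL, so TL and DL cannot be ranked.

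MYH7, the slow and ventricular heavy chain, gave different orders at its 2 probes. The brighter one was at 8.95 and 8.84 in TH, 9.54 and 9.48 in TL, 9.21 and 9.54 in DH, and 9.13 and 9.11 in DL, with TL and DH overlapping. The other was at 7.68 and 7.81 in TH, 7.40 and 7.37 in TL, 7.84 and 7.76 in DH, and 7.69 and 7.66 in DL, and here TL was lowest. The altitude difference was -0.18 ± 0.08 at the first probe and 0.24 ± 0.04 at the second, and neither passed (limma, adjusted p = 0.092 and 0.0034). Both are named by the same RefSeq accession, and no direction is given for MYH7.

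Other genes of striated muscle were taken from lists set up beside the members. Of 37 further sarcomere genes 14 had a RefSeq-named probe, and 13 of these were above background on at least 1 array, 7 of them on all 8. For the breed effect 5 of the 13 were called (TNNI2, MYOZ1, MYOZ3, SMPX and NRAP), all lower in Tibetan pigs, beside 19.5% of all probes. For the interaction MYOZ1, MYOZ3 and NRAP were called higher and SMPX lower, beside 21.1%. Between TL and DL 4 were called, all lower in TL, and between TH and DH 2, beside 29.9% and 4.42%. TH minus DH was only -0.08 for MYOZ1 and -0.04 for NRAP (limma, adjusted p = 0.27 and 0.57), so their breed difference was not shared by the altitudes. For altitude 1 was called higher and 1 lower, and the median difference of the 13 was 0.26. The 4 brightest were TPM2, MYOZ1, MYOZ3 and TNNI2. TPM2, a tropomyosin also used by smooth muscle, lay at 14.16 to 14.84 on all arrays and was called in none of the 3 effects. TNNI2, fast troponin I, had group means of 10.45, 9.55, 11.43 and 11.18 in TH, TL, DH and DL. This is the order of TNNT1 and not that of its partners in fast troponin, TNNC2 and TNNT3, and TNNI2 was lower in Tibetan pigs by a log2 difference of -1.31 ± 0.04 (limma, adjusted p = 8.3e-06). MYOZ3 and MYOZ1 encode Z-disc proteins that bind calcineurin. MYOZ3 had means of 10.22, 7.58, 11.71 and 11.04, with a breed difference of -2.47 ± 0.05 (limma, adjusted p = 3.6e-06), and MYOZ1 had 10.64, 9.66, 10.71 and 10.98, with -0.70 ± 0.04 (limma, adjusted p = 3.7e-05). Both were lowest in TL, which was the lowest group for 42.6% of all probes and 50.4% of RefSeq-named probes.

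TNNI1 and TNNI2, slow and fast troponin I, were well above background on all 8 arrays. Other genes of striated fibers, named here after their values were seen, were so on fewer. MYL1, a fast light chain, was well above background on the 2 TH arrays and 0 others. MYL2, the slow and ventricular light chain, and MYOZ2 were so on the 2 TL arrays and 0 others, CSRP3 was so on 1 TL array, and MYOT on 0 arrays. MYBPH passed on both TH and both TL arrays and on 0 Duroc arrays. Its group means were 7.23, 6.17, 6.08 and 6.16 in TH, TL, DH and DL, so that TL lay near the Duroc groups. CSRP3 had a lower mean in TL, 5.59, than in DL, 5.89, where it was not marked. The TL arrays carry the brightest raw signal, so a mark there does not mean a higher normalized level. MYLPF, the fast regulatory light chain, passed on 7 arrays with group means of 6.44, 6.02, 6.50 and 6.39.

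**Figure D4:**
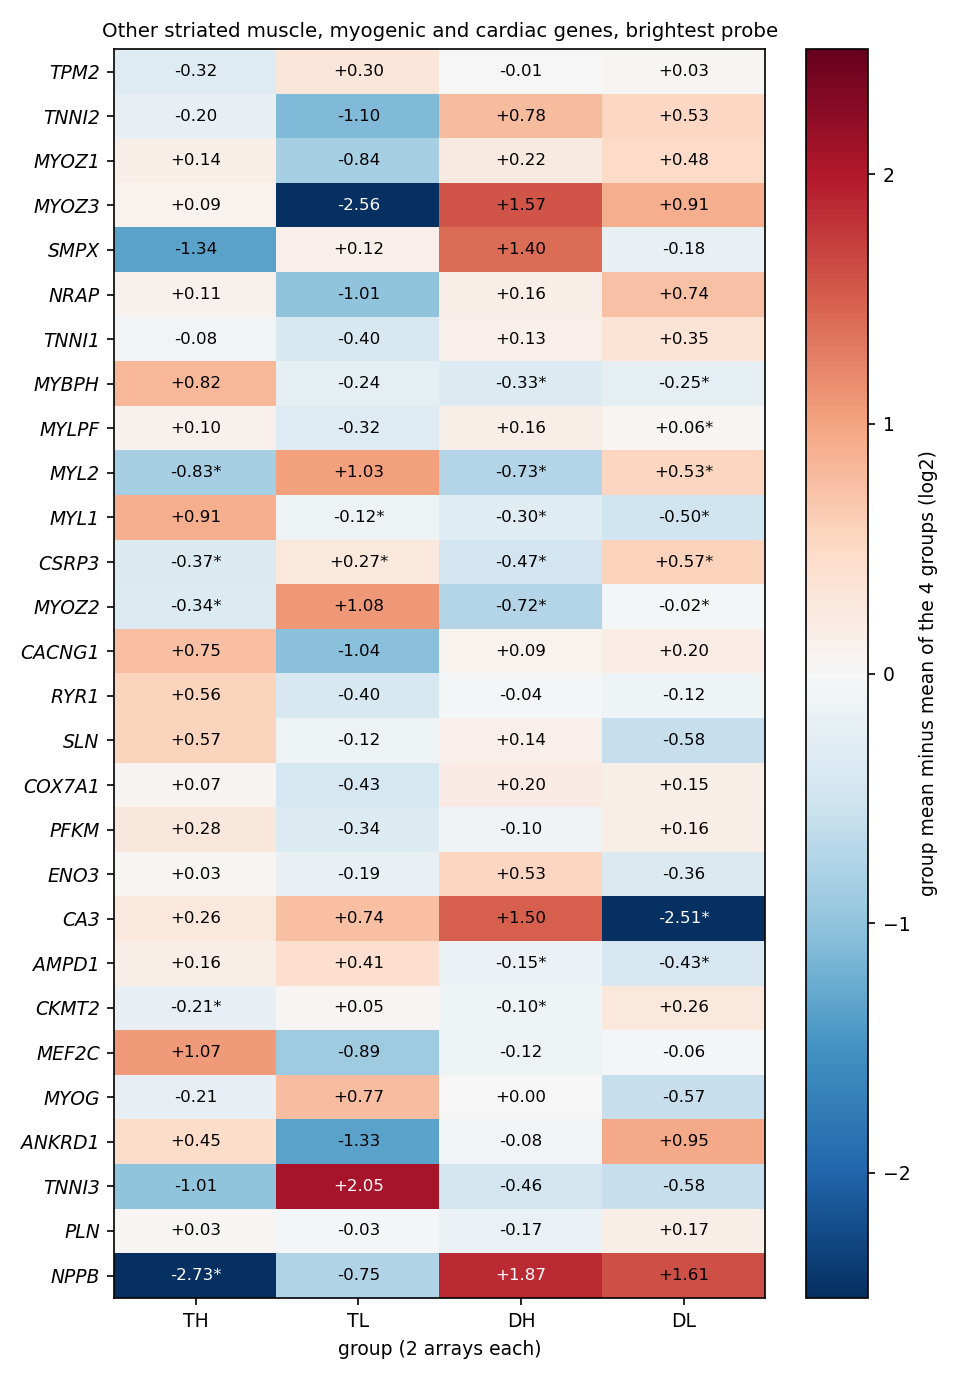
Group means of 28 further genes of striated muscle, muscle regulation and heart (rows, brightest probe) in the 4 groups (columns), each minus the mean of the 4 groups of that probe, in log2 units. An asterisk marks a group in which fewer than 2 arrays were well above background, and colors end at 2.5 units; TNNI2, MYOZ3, MYOZ1, NRAP and ANKRD1 are lowest in TL, TNNI3 and MYOG are highest there, and no column is positive or negative throughout.

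Genes of calcium handling and energy supply were also uneven. Of 13 calcium handling genes, 3 had a tested probe and all 3 were above background on all 8 arrays. SLN, sarcolipin, which restrains the calcium pump, had means of 7.94, 7.25, 7.51 and 6.80 in TH, TL, DH and DL, the order of MYH4, and no effect was called. CACNG1, a calcium channel subunit of skeletal muscle, had an altitude difference of 0.84 ± 0.05 averaged over breed (limma, adjusted p = 4.0e-05). Its interaction was 1.89 ± 0.09 (limma, adjusted p = 2.0e-05), with TH minus TL at 1.79 (limma, adjusted p = 5.5e-06) and DH minus DL at -0.10 (limma, adjusted p = 0.23). RYR1, the calcium release channel of skeletal muscle, was at 9.28 and 6.70 on the 2 TH arrays and at 7.01 to 7.46 on the other 6, so its TH mean rests on TH replicate 1. Of 12 energy genes, 6 were above background and 2 were called higher at high altitude, CA3 and ENO3. ENO3, muscle enolase, shared the order of CKM, with means of 10.49, 10.27, 10.99 and 10.10, and rose with altitude by 0.55 ± 0.04 (limma, adjusted p = 7.0e-05). CA3, muscle carbonic anhydrase, was at 7.28, 7.76 and 8.52 in TH, TL and DH and was not well above background on either DL array. Its altitude difference was not shared by the breeds, since TH minus TL was -0.48 (limma, adjusted p = 0.0067) and the interaction was called (limma, adjusted p = 5.7e-06). COX7A1 and PFKM, a mitochondrial subunit of muscle and heart and the muscle phosphofructokinase, were on all 8 arrays with ranges of group means of 13.89 to 14.52 and 10.96 to 11.59.

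Of 9 myogenic regulators 5 had a RefSeq-named probe. MYOD1, MSTN and SMYD1 were well above background on 0 arrays. MYOG, a regulator of muscle differentiation, was at 9.52 and 9.51 in TH, 10.48 and 10.53 in TL, 9.70 and 9.76 in DH, and 9.21 and 9.11 in DL, with a breed difference of 0.56 ± 0.04 (limma, adjusted p = 6.3e-05) and an interaction of -1.56 ± 0.07 (limma, adjusted p = 1.8e-05). MEF2C, which acts in muscle and in other tissues, rose with altitude by 0.95 ± 0.05 (limma, adjusted p = 4.5e-05), but with an interaction of 2.03 ± 0.11 (limma, adjusted p = 2.8e-05). The difference was 1.97 in Tibetan pigs (limma, adjusted p = 6.8e-06) and -0.07 in Duroc pigs (limma, adjusted p = 0.50). Of 14 cardiac genes 5 had a RefSeq-named probe, and NPPA, the atrial natriuretic peptide, was on 0 arrays. TNNI3, cardiac troponin I, was at 14.34 and 14.27 in TL against 11.19 to 11.80 on the other 6 arrays, and its interaction was -3.19 ± 0.08 (limma, adjusted p = 3.7e-06). ANKRD1, a stress-responsive protein of cardiac muscle, was lowest in TL, with means of 12.99, 11.21, 12.46 and 13.49. PLN, phospholamban, lay at 11.13 to 11.52 on all arrays. NPPB, the B-type natriuretic peptide, was at 9.05 to 9.35 on the Duroc arrays and 6.68 and 6.69 in TL, and was not well above background in TH. None of the cardiac genes named here had the order of CKM or of ACTA1. TNNI3 had the order of the brighter MYH7 probe, from TL through DH and DL down to TH. The other MYH7 probe was lowest in TL.

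Markers of other cell types that a lung piece may hold were set beside these values, as the range of the log2 of their summed signals. Such a sum is weighted to the brightest probes, for the members that of CKM, and does not show genes with other orders, such as ACTA1 and TNNT1. The summed level of the member genes was 12.90 to 12.91 in TH, 12.41 to 12.51 in TL, 12.90 to 12.98 in DH, and 12.21 to 12.23 in DL. Lung epithelium, with 7 of 7 measured genes on all 8 arrays, was at 19.00 to 19.01, 19.19 to 19.32, 19.40 to 19.45 and 19.24 to 19.29 in the same groups. SFTPC and SFTPB, surfactant proteins, had no calls in the breed and altitude effects, whereas SFTPD, another of the list, was called lower in Tibetan pigs, by a log2 difference of -0.66, and higher at high altitude, by 0.60. Endothelium, with 3 of 3 on all arrays (CAV1 and CDH5 the brightest), was at 18.37 to 18.42, 18.92 to 19.00, 18.73 to 18.74 and 18.92 to 19.03. Smooth muscle, with 3 of 3 on all arrays (DES, which striated muscle also expresses, and CNN1 the brightest), was at 17.04 to 17.05, 17.18 to 17.25, 17.08 to 17.17 and 17.32 to 17.33, with median differences of -0.03 for breed and -0.18 for altitude over its 3 genes. The adipocyte list, with 4 of 6 genes on all arrays, was at 13.34 to 13.46, 13.08 to 13.11, 13.26 to 13.30 and 12.95 to 12.96, so that it had both highland groups above both lowland groups, as the member sum did. Its 2 brightest genes were FABP4, called higher in Tibetan pigs, and CIDEC, called lower in Tibetan pigs and higher at high altitude. Altitude differences were positive for 5 of the 6 adipocyte genes and negative for LEP, at -0.31. The nerve list, with 1 of 2 genes on all arrays (MBP), was at 12.80 to 12.91, 11.75 to 11.80, 11.90 to 11.96 and 11.56 to 11.62, and likewise had both highland groups above both lowland groups. ACAN, the 1 measured cartilage gene, was at 10.88 and 11.03 in TH, 11.93 and 12.09 in TL, 8.55 and 8.54 in DH, and 9.84 and 9.79 in DL, which is the order of ACTA1, and was higher in Tibetan pigs by 2.30 (limma call). Genes of erythroid cells and squamous epithelium had 0 RefSeq-named probes and were not analysed here. The part of other tissues in the differences of the member genes was not tested.

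By likeness over the 8 arrays, the 5 probes closest to the brightest ACTA1 probe belonged to no gene of the other muscle lists. With only 5 of 4976 candidates listed, this does not show how alike to ACTA1 the genes of those lists were. Probes of the member genes were not candidates. Among 4976 probes of other named genes that were above background on all 8 arrays, the 5 with the highest Pearson r were 2 probes of SLC44A4, a choline transporter family member (r = 0.99 for both), and 1 each of KNG1, kininogen (r = 0.99), IFIH1, a sensor of viral RNA (r = 0.99), and CCL2, a chemokine (r = 0.99). In all, 92 probes had r over 0.9. These values are a description, since the points are 4 groups of 2 arrays and share slides.

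In the deposited log2 values, 15 of the 16 member probes had the same order of the 4 groups as above. The exception was the second probe of ACTA1, where TH and TL changed places, at means of 7.90 and 7.85. There ACTA1 spanned 5.40 in DH to 8.36 in TL at its brightest probe, a range of 2.96 against 2.36 above, and MYH2 spanned 9.21 in DL to 10.48 in DH.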

How the data were processed

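Lung RNA of 8 pigs, 2 in each of TH, TL, DH and DL, was hybridized to 1-color Agilent arrays. The authors extracted spot intensity with Agilent Feature Extraction (10.7.3.1 per the file headers, 9.1 in the submitters' processing notes). They deposited it with processed signals and a table of normalized log2 values, whose columns share 1 distribution; the methods name RMA, and its exact steps are not given in the sources used here. Here the median signal per spot underwent normexp correction with an offset of 0, quantile normalized and taken to log2. Control and outlier spots were left out (12 to 44 outlier spots per array), and repeated spots of a probe were averaged. Probes well above background on at least 1 array entered a two-way fit in limma 3.58.1 with R 4.3.3, with moderated variances and the FDR of the methods, below 0.0001. Figures were drawn with matplotlib 3.10.9.

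Of 43603 probes, 3250 carried a RefSeq accession and 2683 of these matched a symbol of the RefSeq gene table of Sscrofa11.1. The paper's tables, which are shortened, named 3655 probes, and of 660 probes with both sources 98.0% carried an equal symbol. A gene was named at its brightest RefSeq-named probe with its other probes by range. Of the other muscle lists the 4 brightest genes were named, of other cell types the 2 brightest, and for likeness 5 probes. The members and lists were chosen with earlier results of these data known. Where no array of a group was well above background, a fold is a bound against the higher of the probe's own value and the lowest value well above background on that array. The probe's own value was the higher each time, so these bounds equal the measured folds of group means. They make no allowance for the spread between arrays. P-values measure the spread between these arrays, which is limited by how few they are. The fit was tested on simulated data. Alternatives were other signals and scalings, the deposited values, other filters, outlier spots kept, other variance models, an FDR below 0.05, a block of slide or of replicate number, and leaving out each array. The count of probes with every highland array above every lowland array was added after seeing the data.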

Additional observations from a re-analysis of the deposited data

Results flagged for a closer look

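The altitude difference of TNNC2 was not the same in the 2 breeds by the interaction term of limma. TH minus TL was 0.88 and DH minus DL was -0.23, and the interaction was 1.11 (adjusted p = 7.7e-05). TNNC2 was higher in both TH arrays than in both TL arrays, and lower in both DH arrays than in both DL arrays. Slide, move and interaction are 1 contrast here and cannot be told apart. Groups of 2 arrays are too small for a test of single arrays that stand apart.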

How the results depend on the processing

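Counts of called member probes moved with the setting, and are given for breed, altitude and interaction in turn (2, 3 and 1 of 15). They were 4, 5 and 3 with processed signals at the 75th percentile, 9, 13 and 10 at an FDR below 0.05, and 1, 1 and 0 without moderation. The shares of all probes called were then 33.2, 30.4 and 32.4%, 67.7, 66.9 and 69.7%, and 4.89, 2.98 and 6.59%, against 19.5, 17.4 and 21.1% in the main setting. Altitude and interaction counts were 6 and 2 with quantile normalized processed signals and with the deposited values, 7 and 2 with the filter on both arrays of a group, 5 and 2 with an intensity trend, and 1 and 0 with no filter, beside 26.4 and 28.5%, 26.3 and 28.4%, 25.1 and 28.4%, 29.5 and 31.2%, and 9.39 and 13% of all probes. With probes on all 8 arrays the breed count was 1 and the interaction count 2 of 8, beside 42.9 and 43.7% of all probes, and 3 of 8 probes had every highland array above every lowland array. Leaving out 1 array gave 0 to 2 calls for breed and 0 for altitude and interaction, beside 0.00581 to 5.39%, 0% and 4.25 to 8.25% of all probes, with DH highest for 7 to 9 probes and the highland pattern in 7 to 9. Across the left-out arrays, the replicate block, no filter and no moderation, 8 to 10, 12 to 14 and 9 to 12 of the 15 probes had an unadjusted p under 0.05 for breed, altitude and interaction. The slide as a block left the breed and altitude counts at 2 and 3, and gives no interaction.

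With the replicate number as a block, altitude and interaction had 0 calls and breed had 2, beside 1.87, 9.25 and 6.07% of all probes. Correlations of same-numbered arrays were -0.07 to 0.15. The labels name no pairing of the pigs, and these values cannot decide whether there was one.

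Of 81 differences of the brightest probes, 7 values under alternatives had the opposite sign, all of differences that were not called. At the 75th percentile these were 0.135 for MYH7 and 0.20 for TNNC2 in breed and 0.0756 for TNNT3 in TL minus DL. Without single DH arrays, TH minus DH ran from -0.127 to 0.0717 for MYH1 and from -0.0748 to 0.0065 for MYH2, the breed effect of MYH7 from -0.128 to 0.0373, and TL minus DH of MYH7 from -0.0273 to 0.304. The cause was not tested. The 75th percentile moved the median interaction over all probes from 0.19 to 0.33, and the median over the 15 member probes from -0.10 to -0.51.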
